A study of Mus musculus with 6 samples.

Results

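The stathmins Stmn1, Stmn2, Stmn3 and Stmn4 and the growth-associated axon genes Gap43, Marcks, Basp1, Dcx, Tubb3 and Map1b were examined in bulk-seq of mouse spinal cord. They were chosen by name, as the stathmin family together with genes known from growing axons, and make up 10 of the 25576 genes listed in at least 1 library. All 10 were listed in all 6 libraries. The libraries were made from spinal cords at postnatal day 4 of mice on the FVB strain, with 3 libraries labelled SMA and 3 labelled control. SMA mice had the genotype (mSmn-/-, hSMN22tg/0), with both copies of mouse Smn knocked out, and control mice had the genotype (mSmn+/-, hSMN22tg/0), with a single knocked-out copy. Both groups carried the human SMN2 transgene on one chromosome only, and SMN2 makes a small amount of full-length SMN protein because most of its transcripts skip an exon. Control mice were therefore not wild type. The knockout was present in every cell of the body, not in neurons alone. The study's methods describe triplicates but give a single sample per group as n, so the 3 libraries of a group may have come from 1 mouse, and p-values measure the spread between these libraries, which may be technical.

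Stathmins bind soluble tubulin and promote the loss of subunits from microtubule ends, and phosphorylation switches this activity off. Stmn1 is found in many dividing and immature cells, whereas Stmn2, Stmn3 and Stmn4 are mainly neuronal and are anchored to membranes of the Golgi and the growth cone. Gap43, Marcks and Basp1 lie on the inner face of the growth cone membrane and bind calmodulin or acidic lipids, while Dcx, Tubb3 and Map1b build and stabilise the microtubules of young neurons.

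On GRCm38, Stmn1 lay on the plus strand at chr4:134468320-134473843, Stmn2 on the plus strand at chr3:8509360-8561606, Stmn3 on the minus strand at chr2:181306459-181314500 and Stmn4 on the plus strand at chr14:66344296-66361680. The growth cone membrane genes were on the minus strand, Gap43 at chr16:42248442-42340651, Marcks at chr10:37133375-37138920 and Basp1 at chr15:25363277-25413764. Dcx was on the minus strand at chrX:143855842-143933311, Tubb3 on the plus strand at chr8:123411424-123422015 and Map1b on the minus strand at chr13:99421446-99516540. Tubb3 overlaps Gm20388 on the same strand, which was listed at 7.93 to 17.8 FPKM, and it shares long stretches of sequence with the other beta-tubulin genes, so its values are uncertain. The deposited files listed Tubb3 on a merged span, chr8:119910360-124345724, that 103 genes shared, whereas each of the other 9 genes had a span of its own. FPKM is the number of fragments scaled to exon length and to the fragments mapped, so levels can be compared between genes.

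RefSeq promoters on GRCm38.p6, covering 250 bases before to 50 bases after a transcription start, were matched by symbol for 5 of the 10 genes, with 2 overlapping windows for Dcx. The windows of Stmn3, Tubb3 and Dcx are shown because all SMA libraries were above all control libraries for these genes. They come from the C57BL/6J reference, not from FVB. Capitals mark 3 motifs, each searched on both strands. The first, TATAAA, is known as the TATA box. The second, GGGCGG, is known as the GC box. The remaining motif was CCAAT. The Stmn3 window was the minus strand of chr2:181314451-181314750, the Tubb3 window the plus strand of chr8:123411303-123411602 and the Dcx window the minus strand of chrX:143933170-143933469.
Stmn3: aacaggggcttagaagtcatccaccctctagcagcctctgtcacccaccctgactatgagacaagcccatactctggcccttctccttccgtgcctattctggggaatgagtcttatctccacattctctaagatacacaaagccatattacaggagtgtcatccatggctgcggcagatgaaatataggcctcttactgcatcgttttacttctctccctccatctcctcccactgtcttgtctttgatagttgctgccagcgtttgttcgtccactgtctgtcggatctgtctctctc
Tubb3: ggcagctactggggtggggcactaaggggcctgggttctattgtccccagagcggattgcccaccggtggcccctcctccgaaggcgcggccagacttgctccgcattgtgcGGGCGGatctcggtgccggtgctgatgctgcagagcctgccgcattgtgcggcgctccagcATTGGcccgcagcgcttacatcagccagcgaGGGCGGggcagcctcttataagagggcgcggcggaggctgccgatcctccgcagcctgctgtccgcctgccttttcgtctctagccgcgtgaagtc
Dcx: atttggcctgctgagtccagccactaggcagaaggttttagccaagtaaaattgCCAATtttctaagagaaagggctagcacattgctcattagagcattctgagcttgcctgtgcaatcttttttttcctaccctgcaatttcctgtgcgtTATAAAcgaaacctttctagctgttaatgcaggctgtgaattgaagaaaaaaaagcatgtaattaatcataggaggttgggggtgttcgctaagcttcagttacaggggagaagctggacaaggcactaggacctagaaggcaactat
The Stmn3 window held none of these 3 motifs. The Tubb3 window held 2 GC boxes and 1 CCAAT, and the Dcx window 1 TATA box and 1 CCAAT. Among the windows of the genes whose groups overlapped, that of Basp1 held 4 GC boxes and that of Map1b 1 TATA box and 2 GC boxes. TATAAA was found in 13.6% of all 32851 promoters, GGGCGG in 35.7% and CCAAT in 37.4%. The GC content was 49.7% for Stmn3, 67.3% for Tubb3, 43% for this Dcx window, 65.7% for Map1b and 78% for Basp1, against a median of 52.7% over all promoters. These matches describe the letters only, and none of the 3 motifs was found in all of the windows shown.

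Smn1, the targeted gene, measured 10.4, 8.64 and 11.9 FPKM in control libraries against 8.48, 9.30 and 11.1 FPKM in SMA libraries. The groups overlapped, and log2(FPKM + 1) differed by -0.09 between SMA and control (SE 0.15, adjusted p = 0.819, limma with Benjamini-Hochberg adjustment). Without control replicate 2, the library described next, it differed by -0.20. Divided by the geometric mean of 14 pan-neuronal genes, a scale described below, Smn1 was 0.0653, 0.0854 and 0.0718 in control libraries against 0.0523, 0.0537 and 0.0629 in SMA libraries. On that scale all SMA libraries were below all control libraries, with a log2 fold change of -0.36 (adjusted p = 0.591, limma with Benjamini-Hochberg adjustment), where the median over all genes was -0.20. The knockout allele of this line removes only an exon near the end of the gene, and a value over the whole gene is no check of the labels. Every direction below therefore rests on the labels. Values by library are given throughout in the order of replicates 1, 2 and 3, control libraries first.

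Control replicate 2 stood apart from the other libraries. Its log2(FPKM + 1) correlated with the other libraries at a Pearson's r, taken across genes that are not independent replicates, of 0.836 to 0.849, while the other 5 libraries correlated at 0.983 or more. Alb, the most abundant of 14 hepatocyte markers, was listed at 15890 FPKM there and at 24.7 to 56.2 FPKM elsewhere, and all 14 markers were highest in this library. These markers summed to 29660 FPKM in control replicate 2, to 83.96 and 57.02 FPKM in control replicates 1 and 3, and to 47.63, 104.1 and 56.04 FPKM in SMA replicates 1 to 3. Hbb-bs, the most abundant erythroid marker, was listed at 7026 FPKM in control replicate 2 and at 424 to 694 FPKM in the other libraries. All 9 erythroid markers in the files were highest in control replicate 2, where they summed to 18860 FPKM, against 1863 and 1180 FPKM in control replicates 1 and 3 and 1115, 1719 and 1333 FPKM in SMA replicates 1 to 3. All 10 stathmin and axon genes had their lowest value in control replicate 2. So did 12 of 14 pan-neuronal, 6 of 6 oligodendrocyte precursor and 7 of 8 astrocyte genes. By contrast, 2 of 7 microglial genes and none of the oligodendrocyte, endothelial, fibroblast or Schwann genes did. The share over all genes was not computed. Whether the liver and blood transcripts account for the low values of the 10 genes was not tested. In bulk tissue, fewer cells of a type and less RNA per cell cannot be told apart. Results are given with and without this library.

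The 10 genes were abundant. Without control replicate 2, the mean over 5 libraries was highest for Stmn2 at 445.5 FPKM (SD 22.95), followed by Tubb3 at 358.1 FPKM (SD 21.33) and Stmn3 at 355.5 FPKM (SD 26.77). Tubb3 and Stmn3 could not be ordered, since their ranges overlapped and Tubb3 was above Stmn3 in 3 of 5 libraries. Basp1 followed at 247.5 FPKM and Map1b at 224.8 FPKM, and neither range overlapped that of its neighbours. The ranges of Gap43 at 192.8 FPKM and Marcks at 175.3 FPKM overlapped, as did those of Marcks and Stmn1 at 153.4 FPKM. Dcx at 84.46 FPKM and Stmn4 at 42.87 FPKM were lowest, with ranges apart from all others. Map1b varied least among these 5 libraries, with a coefficient of variation of 1.76%, and Stmn1 most, with 13.0%. Together the 10 genes held 0.641%, 0.316% and 0.616% of the summed FPKM in control libraries against 0.618%, 0.648% and 0.633% in SMA libraries. Stmn2 ranked between 39 and 42 among all genes in 5 libraries and 122 in control replicate 2. Between 7 and 8 of the 10 genes were among the 200 most abundant in each of the 5 libraries, against 3 in control replicate 2.

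**Figure D1:**
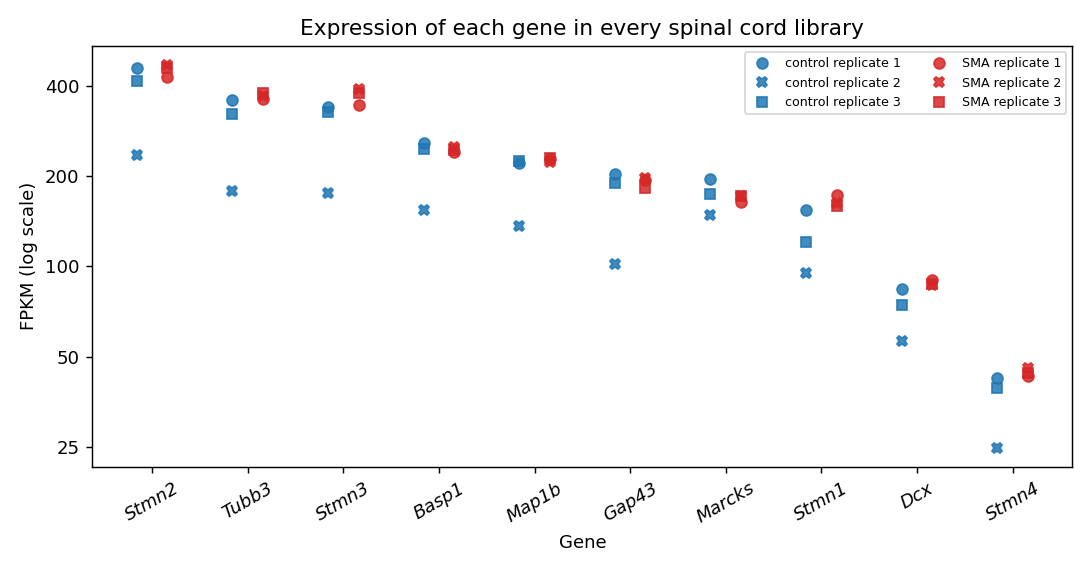
FPKM (log scale) of the 10 genes in each of the 3 control libraries (blue) and 3 SMA libraries (red), ordered by mean over the 5 libraries without control replicate 2. Control replicate 2 is the lowest point for every gene, such as 235.4 FPKM for Stmn2 against 415.7 FPKM or more in the other libraries.

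The comparison of SMA with control addressed whether these axon growth genes were altered in SMA spinal cord at postnatal day 4. None of the 10 genes passed an adjusted p under 0.05 in limma with Benjamini-Hochberg adjustment over 17088 genes, of which 0 (0%) passed. None of them was a DEG by a fold over 2 together with p under 0.05 before adjustment, where 0.0702% of all genes were higher and 0.0995% lower. By p under 0.05 before adjustment and any fold, 1 of 10 was higher (Stmn1), against 3.4% of all genes, and 0 were lower, against 2.39%. All 3 SMA libraries were above all 3 control libraries for 5 of 10 genes (Stmn1, Stmn3, Stmn4, Dcx and Tubb3), where 10.3% of all genes did so, and below them for 0 of 10, against 6.67%. Control replicate 2 was lowest for all 10 genes, so the count of 0 below was fixed in advance. The log2 fold change was positive for 9 of 10, against 58% of all genes, and negative for Marcks, against 42%. Without control replicate 2 these same 5 genes were above, where 14.2% of genes were, and Marcks was below, where 13.9% were. As that library was lowest for all 10 genes, leaving it out could not change which genes were above. In that fit 2 of 10 genes, Stmn1 and Dcx, had an unadjusted p under 0.05 and were higher, against 5.27% of genes, and 0 of 10 were lower, against 5.2%. None was a DEG by the fold over 2, where 0.0965% of genes were higher and 0.0422% lower. The log2 fold change was then positive for 7 of 10, against 50.4% of genes, and negative for Gap43, Marcks and Basp1, against 49.6%. Of 16574 genes, 2 (0.0121%) then passed the adjusted threshold, Snora74a and Rpph1, neither of them an axon gene. For each gene on its own, the smallest two-sided p that an exact permutation test allowed was 0.1 for 3 libraries against 3 and 0.2 for 3 against 2, where the two-sided p was taken by doubling the one-sided p.

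Among the stathmins, Stmn1, the family member also found in dividing cells, measured 153.6, 94.8 and 120.1 FPKM in control libraries against 173.3, 161.8 and 158.4 FPKM in SMA libraries. All SMA libraries were above all control libraries, the closest pair being 153.6 and 158.4 FPKM. The log2 fold change on log2(FPKM + 1) was 0.44 (SE 0.18, 95% confidence interval 0.01 to 0.88, unadjusted p = 0.0459, adjusted p = 0.683, limma with Benjamini-Hochberg adjustment). Without control replicate 2 it was 0.27 (interval 0.03 to 0.51, unadjusted p = 0.0301, adjusted p = 0.436, limma with Benjamini-Hochberg adjustment). Its adjusted p lay between 0.404 and 0.907 over all alternatives tried with limma and Benjamini-Hochberg adjustment. The unadjusted p of Stmn1 missed 0.05 when control replicate 3 or any single SMA library was left out, without a filter on low FPKM, with libraries scaled to the same total, and with pan-neuronal scaling, where its log2 fold change was 0.15, or 0.21 without control replicate 2.

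Stmn2, a neuronal stathmin of growth cones and regenerating axons, measured 458.5, 235.4 and 415.7 FPKM in control libraries against 426.4, 468 and 458.8 FPKM in SMA libraries. The groups overlapped, and control replicates 1 and 3 lay within or just below the SMA range. Its log2 fold change was 0.34 (interval -0.28 to 0.96) with all libraries and 0.05 (interval -0.13 to 0.22) without control replicate 2. The second interval reached at most 0.22 above and 0.13 below no difference, on the log2 scale.

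Stmn3, also neuronal, measured 339.2, 176 and 326.1 FPKM in control libraries against 345.3, 389.3 and 377.7 FPKM in SMA libraries. Its groups did not overlap, though SMA replicate 1 exceeded control replicate 1 by little. For Stmn3 the log2 fold change was 0.46 (interval -0.17 to 1.08) with all libraries and 0.15 (interval -0.01 to 0.32) without control replicate 2. Stmn4, the stathmin with the lowest level, measured 42.5, 24.9 and 39.2 FPKM in control libraries against 43.0, 45.7 and 43.9 FPKM in SMA libraries. The groups did not overlap, with 42.5 and 43.0 FPKM as the closest pair. Its log2 fold change was 0.34 (interval -0.13 to 0.82) with all libraries and 0.11 (interval -0.04 to 0.26) without control replicate 2. The median over the 4 stathmins was 0.39 with all libraries and 0.10 with these scaled to pan-neuronal genes. It was 0.13 without control replicate 2, where all 4 were positive, although Stmn2 became negative when control replicate 2 was left out and libraries were scaled to the same total or to pan-neuronal genes.

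Ratios between genes of a library do not depend on its scaling. Stmn2 over Stmn3 was 1.352, 1.337 and 1.275 in control libraries against 1.235, 1.202 and 1.215 in SMA libraries. All SMA libraries were below all control libraries in this ratio, and control replicate 2 lay between the other control libraries. Stmn2 over Stmn4 was 10.8, 9.47 and 10.6 in control libraries against 9.92, 10.2 and 10.4 in SMA libraries, and these groups overlapped. Stmn2 over Marcks was 2.34, 1.59 and 2.39 in control libraries against 2.60, 2.72 and 2.68 in SMA libraries. Of 6 such ratios computed, the groups were apart for 2, Stmn2 over Stmn3 and Stmn2 over Marcks, and both were singled out after their values had been seen. Most of the 6 shared Stmn2, and the share of other gene pairs apart in this way was not computed.

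Among the growth cone membrane genes, Gap43, a substrate of protein kinase C that binds calmodulin, measured 202.6, 101.6 and 189.2 FPKM in control libraries against 194.2, 196.5 and 181.7 FPKM in SMA libraries. The groups overlapped, and all SMA values were below control replicate 1, with 2 of them above control replicate 3. The log2 fold change of Gap43 was 0.28 (interval -0.35 to 0.90) with all libraries and -0.04 (interval -0.19 to 0.11) without control replicate 2, so its sign depended on that library.

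Marcks, which crosslinks actin and sequesters acidic lipids, measured 195.8, 148.1 and 173.7 FPKM in control libraries against 164.2, 171.9 and 171 FPKM in SMA libraries. It was the member least reduced in control replicate 2, and without that library all SMA values lay below both control values. For Marcks the log2 fold change was -0.02 (interval -0.33 to 0.29) with all libraries and -0.13 (interval -0.28 to 0.03) without control replicate 2. Basp1, which shares with Gap43 and Marcks a basic stretch that binds the membrane, measured 256.7, 154.2 and 246.3 FPKM in control libraries against 240.3, 250 and 244.3 FPKM in SMA libraries. Outside control replicate 2 the groups were interleaved. For Basp1 the log2 fold change was 0.20 (interval -0.30 to 0.69) with all libraries and -0.04 (interval -0.17 to 0.09) without control replicate 2. The median of Gap43, Marcks and Basp1 was 0.20 with all libraries and -0.04 without control replicate 2, where all 3 were negative, and it was also negative at -0.10 when all libraries were scaled to pan-neuronal genes.

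Of the microtubule genes, Dcx, a microtubule-binding protein of migrating and young neurons, measured 83.7, 56.4 and 74.4 FPKM in control libraries against 90.3, 86.45 and 87.5 FPKM in SMA libraries. The SMA libraries were close together and all above the control libraries. The log2 fold change of Dcx was 0.32 (interval -0.05 to 0.68) with all libraries and 0.16 (interval 0.003 to 0.31, unadjusted p = 0.0463, adjusted p = 0.466, limma with Benjamini-Hochberg adjustment) without control replicate 2. The latter unadjusted p missed 0.05 when the 5 libraries were scaled to the same total or to pan-neuronal genes, where the log2 fold change was 0.10 and 0.09.

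Tubb3, the beta-tubulin most typical of neurons, measured 358.2, 177.6 and 322.7 FPKM in control libraries against 361.2, 370.1 and 378.4 FPKM in SMA libraries. The groups did not overlap, with 358.2 and 361.2 FPKM as the closest pair. Its log2 fold change was 0.43 (interval -0.20 to 1.07) with all libraries and 0.12 (interval -0.04 to 0.28) without control replicate 2. Map1b, a microtubule-stabilising protein of growing axons, measured 220, 136.5 and 224.3 FPKM in control libraries against 228.3, 222.3 and 229.3 FPKM in SMA libraries. Outside control replicate 2 the libraries of both groups lay close together and overlapped. Its log2 fold change was 0.26 (interval -0.23 to 0.75) with all libraries and 0.03 (interval -0.10 to 0.15) without control replicate 2. The median of Dcx, Tubb3 and Map1b was 0.32 with all libraries, 0.12 without control replicate 2 and 0.02 with all libraries scaled to pan-neuronal genes, and Map1b became negative with that scaling. The signs for Stmn1, Stmn3, Stmn4, Dcx and Tubb3 were positive under the 16 planned and 2 added alternatives, whereas Stmn2, Gap43, Marcks, Basp1 and Map1b changed sign under at least 1 of them.

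**Figure D2:**
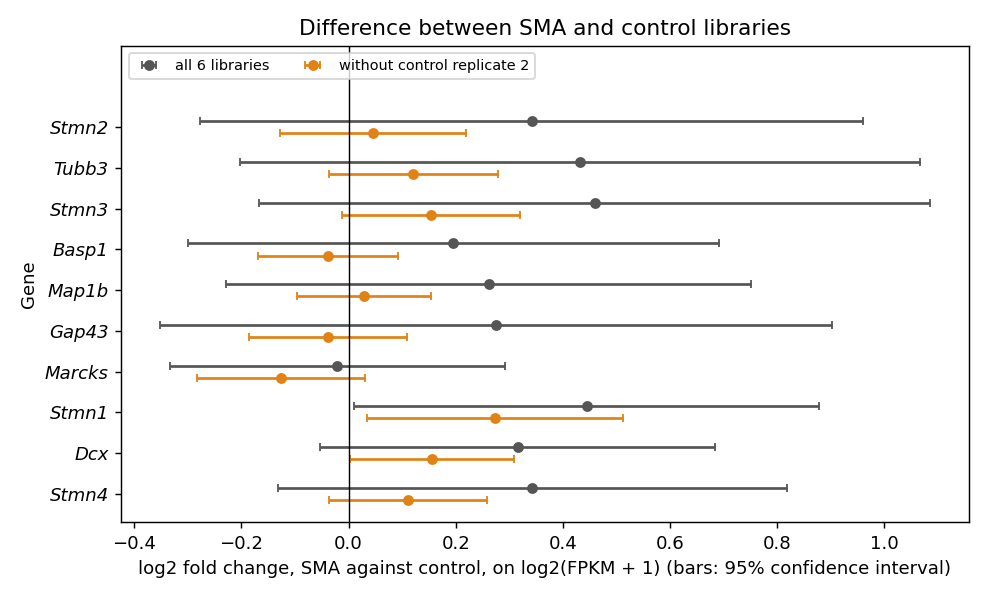
Log2 fold change of SMA against control on log2(FPKM + 1) for each gene, with 95% confidence intervals as bars, from all 6 libraries (grey) and without control replicate 2 (orange). The intervals exclude 0 for Stmn1 in both fits and for Dcx in the second, and Gap43 and Basp1 change sign between the fits.

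The median log2 fold change over the 10 genes was 0.33 with all libraries, against 0.04 over all genes tested, and 0.08 without control replicate 2, against 0.00 over all genes. Most of the difference seen with all libraries was thus absent without that library. As a percentage of the mean of control replicates 1 and 3, control replicate 2 held 51.9% for Gap43, 52.2% for Tubb3, 52.9% for Stmn3 and 53.9% for Stmn2. It held 60.8% for Stmn4, 61.3% for Basp1, 61.5% for Map1b, 69.3% for Stmn1, 71.35% for Dcx and 80.2% for Marcks. The geometric mean of 14 pan-neuronal genes stood at 62.15% in the same library. Gap43, Tubb3, Stmn3 and Stmn2 were below that mean, and Stmn1, Dcx and Marcks were above it. The median of the same 14 genes was 56.61%, and Stmn4, Basp1 and Map1b lay between the 2 values.

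**Figure D3:**
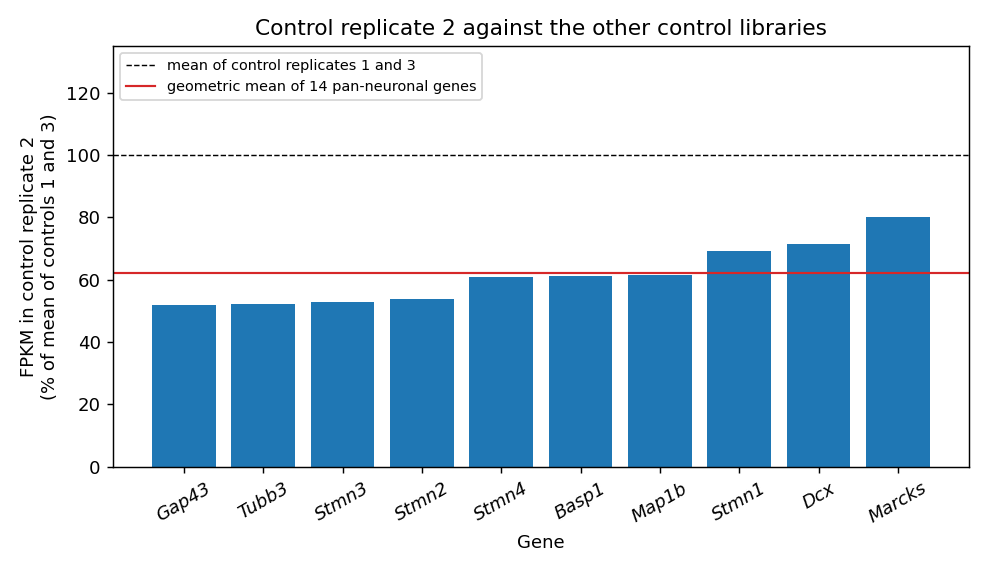
FPKM in control replicate 2 as a percentage of the mean of control replicates 1 and 3 for each gene (bars), with the geometric mean of 14 pan-neuronal genes (red line) and 100% (dashed line). Gap43 was at 51.9% and Marcks at 80.2%, on either side of the pan-neuronal 62.15%.

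Each value was also divided by the geometric mean FPKM of the 14 pan-neuronal genes in its library. That mean was 158.9, 101.1 and 166.3 FPKM in control libraries against 162.2, 173 and 176.1 FPKM in SMA libraries. On this scale the median log2 fold change of the 10 genes was 0.04 with all libraries, against -0.20 over all genes, and 0.01 without control replicate 2, against -0.06 over all genes. The scaling thus shifted the median of all genes by over 0.1 with all libraries, and the median of the 10 genes lay above that of all genes in both cases. The 14 pan-neuronal genes themselves had medians of 0.01 and 0.05 on this scale. These lie near 0 by construction, since the divisor is the mean of the same genes. Before scaling, the pan-neuronal medians were 0.30 with all libraries and 0.12 without control replicate 2, beside 0.33 and 0.08 for the 10 genes. All SMA libraries were above all control libraries for 5 of these 14 genes in FPKM and for 5 of the 10, against 10.3% of all genes. Without control replicate 2 these counts were again 5 of 14 and 5 of 10, against 14.2%. The count of the 10 could not change, since that library was lowest for each of them, as it was for 12 of the 14. With that library left out, 2 of 14 (Eno2 and Syp) and 1 of 10 (Marcks) were below, against 13.9%. A shift particular to the stathmin and axon genes was therefore not shown. Groups overlapped for every member except Marcks, which was 1.23, 1.46 and 1.04 in control libraries against 1.01, 0.994 and 0.971 in SMA libraries. The share of all genes apart on this scale was not computed, so this is not shown to be particular to Marcks. At an unadjusted p under 0.05 in limma, 822 of all genes were lower and 47 higher with this scaling. Stmn1, whose groups were apart in FPKM, was 0.967, 0.938 and 0.722 in control libraries against 1.07, 0.935 and 0.899 in SMA libraries. SMA replicate 1 alone was above the controls in this measure of Stmn1. The pan-neuronal list summed to 3128, 2366 and 3594 FPKM in control libraries against 3400, 3525 and 3627 FPKM in SMA libraries. Its most abundant gene, Meg3, was listed at 811.6 FPKM in control replicate 2 and at 675.4 to 977.5 FPKM elsewhere, unlike the 12 of 14 genes that were lowest in that library.

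The genes that share functions with Tubb3 and the stathmins were examined next, and none of their lists had a gene with an adjusted p under 0.05 in limma with Benjamini-Hochberg adjustment. With all libraries scaled to pan-neuronal genes, the median log2 fold change was negative for each of these 8 lists, from -0.06 for growth cone and axon adhesion genes to -0.22 for axon injury genes, against -0.20 over all genes. With that scaling and without control replicate 2, it was 0.03 for other tubulins and negative for the other 7 lists, against -0.06 over all genes. Of 16 other tubulins, 7 were higher in all SMA libraries (Tuba1a, Tuba1b, Tuba1c, Tubb2a, Tubb2b, Tubb4a and Tubb5) and 1 was lower (Tubb1), against 10.3% and 6.67% of all genes. Without control replicate 2 only 15 were tested, and Tubb1 was not among them. The same 7 were then higher and 0 were lower, against 14.2% and 13.9%. Leaving out a library cannot undo such a separation, so the 7 had to remain. At an unadjusted p under 0.05, 0 of 16 were higher with all libraries, against 3.4% of all genes. Without control replicate 2, 5 of 15 were higher, against 5.27%. Tuba1a, the main alpha-tubulin of young neurons, measured 1041, 648.2 and 1018 FPKM in control libraries against 1170, 1171 and 1212 FPKM in SMA libraries. Tubb2b, a beta-tubulin of young neurons, measured 653, 342.8 and 586.8 FPKM in control libraries against 728.4, 719.9 and 729.8 FPKM in SMA libraries. Both were therefore in the same order as Tubb3, with log2 fold changes without control replicate 2 of 0.20 for Tuba1a and 0.23 for Tubb2b against 0.12 for Tubb3. The list's median was 0.14 with all libraries and 0.10 without control replicate 2, and -0.12 when all libraries were scaled to pan-neuronal genes. Near-identical tubulin sequences make the split of fragments among these genes uncertain.

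Among 26 other microtubule-associated proteins, 3 were higher in all SMA libraries (Dclk2, Map1s and Mapt) and 0 were lower, a count higher near the 10.3% of all genes, where 6.67% were lower. Control replicate 2 was lowest for 25 of the 26, so these 25 could not have been lower with all libraries. The same 3 were higher without control replicate 2, as they had to be, against 14.2% of all genes. In that comparison 2 were lower (Map9 and Tppp3), against 13.9%. Map2, of dendrites, measured 447.9, 283.4 and 405.2 FPKM in control libraries against 418.4, 441.1 and 436.6 FPKM in SMA libraries, which overlapped as for Map1b. Mapt, which encodes tau, measured 252.1, 150.4 and 242.1 FPKM in control libraries against 269.8, 262.8 and 259.9 FPKM in SMA libraries. The median was 0.18 with all libraries and -0.02 without control replicate 2. Among 16 genes of microtubule severing and tubulin modification, Agbl4, a tubulin deglutamylase, measured 3.99, 3.45 and 5.21 FPKM in control libraries against 6.63, 7.55 and 7.47 FPKM in SMA libraries. Fignl1, of the fidgetin family, measured 2.36, 4.65 and 2.10 FPKM in control libraries against 0.897, 1.07 and 1.06 FPKM in SMA libraries. With all libraries these were the 2 genes of the list with an unadjusted p under 0.05, 1 of 16 in each direction against 3.4% of all genes higher and 2.39% lower, with log2 fold changes of 0.67 for Agbl4 and -0.95 for Fignl1, and of 0.56 and -0.68 without control replicate 2. In the latter fit Ttll7, a tubulin polyglutamylase, was also lower at an unadjusted p under 0.05, so that 1 of 16 was higher and 2 were lower, against 5.27% and 5.2% of all genes. The most abundant of this list, Agtpbp1 and Atat1, had overlapping groups, and the list's median was 0.19 with all libraries and 0.00 without control replicate 2.

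Of 16 growth cone and axon adhesion genes, 5 were higher in all SMA libraries (Crmp1, Dpysl3, Dpysl5, Ncam1 and Nrcam) and 0 were lower, against 10.3% and 6.67% of all genes. The same 5 were higher without control replicate 2 and 3 were lower (Chl1, Cntn1 and Rtn4), against 14.2% and 13.9%. All 16 were lowest in control replicate 2, which fixed both the 0 lower with all libraries and the same 5 higher without it. Dpysl3, a tubulin-binding collapsin response mediator, measured 317.6, 186.6 and 313.7 FPKM in control libraries against 344.2, 353.9 and 341.9 FPKM in SMA libraries. Marcksl1, the paralog of Marcks, measured 317.9, 202 and 302.6 FPKM in control libraries against 293.5, 305.5 and 299.4 FPKM in SMA libraries. Marcksl1 overlapped between groups, and its log2 fold change was 0.16 with all libraries and -0.05 without control replicate 2, beside -0.02 and -0.13 for Marcks. The list's median was 0.22 with all libraries and 0.02 without control replicate 2, and it turned negative with pan-neuronal scaling (-0.06, or -0.04 without control replicate 2) and with the same total without that library (-0.03).

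Kinases, phosphatases and calmodulins that act on the stathmins and on Gap43, Marcks and Map1b made up a list of 22 genes, of which 2 were higher at an unadjusted p under 0.05 and 0 were lower, against 3.4% and 2.39% of all genes. The counts without control replicate 2 were 3 higher and 1 lower (Pak1), against 5.27% and 5.2%. Mapk10, a c-Jun N-terminal kinase that phosphorylates stathmins, measured 55.5, 40.5 and 55.0 FPKM in control libraries against 72.3, 69.8 and 71.1 FPKM in SMA libraries. The log2 fold change of Mapk10 was 0.50 (unadjusted p = 0.00964, adjusted p = 0.683, limma with Benjamini-Hochberg adjustment) and 0.36 without control replicate 2. Cdk5r2, an activator of Cdk5, measured 38.1, 23.8 and 35.2 FPKM in control libraries against 43.0, 45.2 and 45.6 FPKM in SMA libraries. The most abundant genes of the list, Calm3 and Calm2, had overlapping groups, and its median was 0.18 with all libraries and -0.01 without control replicate 2.

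RNA-binding proteins known to bind mRNAs of the members were mixed. Tardbp, which encodes TDP-43, a factor needed for normal splicing of human STMN2, measured 64.9, 61.4 and 66.8 FPKM in control libraries against 50.9, 55.3 and 60.9 FPKM in SMA libraries. All SMA libraries were below all control libraries for Tardbp, and control replicate 2 was close to the other controls, unlike for Stmn2. Its log2 fold change was -0.21 (adjusted p = 0.683, limma with Benjamini-Hochberg adjustment) and -0.24 without control replicate 2 (unadjusted p = 0.0178). Elavl2, of the neuronal Hu proteins, measured 80.8, 43.1 and 67.2 FPKM in control libraries against 78.0, 77.85 and 75.6 FPKM in SMA libraries, with overlap. Over the 6 of 7 genes of this list that were tested, the median was 0.10 with all libraries and -0.01 without control replicate 2. Axon injury genes, with which Stmn2 and Gap43 are induced after nerve damage, had a median of 0.06 over the 6 of 8 tested and of -0.07 without control replicate 2. Their most abundant genes, Klf7 and Jun, lay at 15.7 to 19.1 FPKM and at 13.45 to 20.1 FPKM over all libraries, and Sprr1a was listed at 0 in at least 1 library. Genes of immature neurons, which Dcx also marks, had a median of 0.16 and of -0.01 without control replicate 2. Cd24a was listed at 186.7 FPKM in control replicate 2 and at 67.4 to 80.3 FPKM elsewhere, whereas Tagln3 was lowest there at 32.65 FPKM, as Dcx was.

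**Figure D4:**
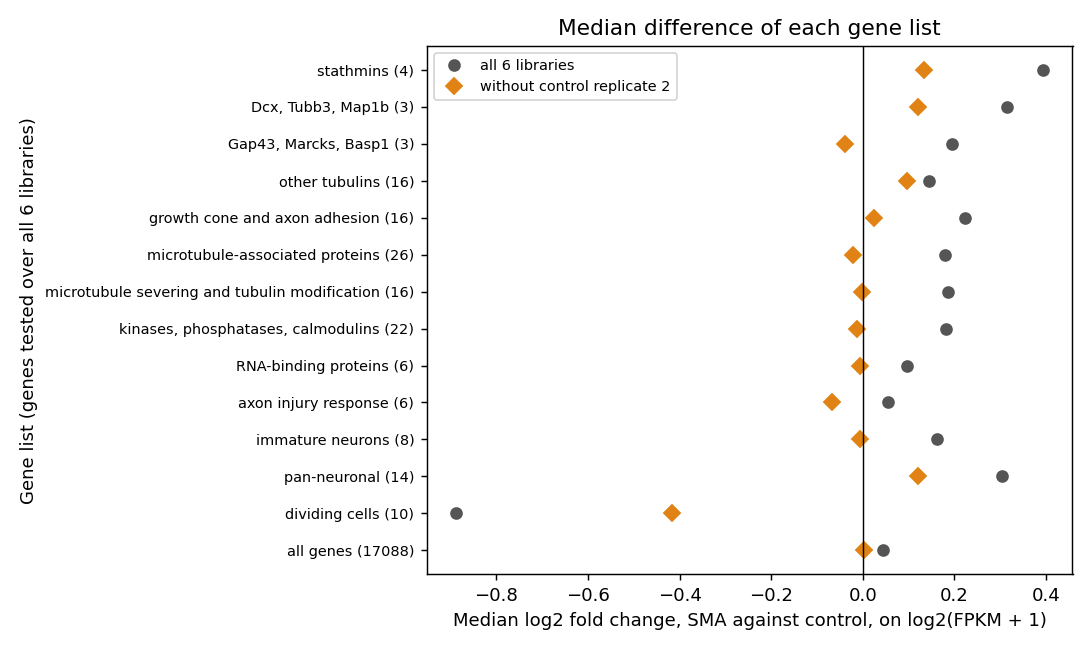
Median log2 fold change of SMA against control on log2(FPKM + 1) for the 3 groups of members and the related lists, with all 6 libraries (grey circles) and without control replicate 2 (orange diamonds). Without that library Gap43, Marcks and Basp1 had a median of -0.04, the stathmins 0.13 and dividing cell genes -0.42, signs that a pan-neuronal scaling kept for these 3 lists.

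Stmn1 was set beside dividing cell genes, since both are found in proliferating cells. The 10 dividing cell genes summed to 79.1, 200.1 and 68.2 FPKM in control libraries against 59.4, 44.9 and 55.0 FPKM in SMA libraries. All 10 were highest in control replicate 2, where Stmn1 was lowest, and 7 of 10 were lower in all SMA libraries, where Stmn1 was higher, against 6.67% of all genes lower. The same 7 were lower without control replicate 2, against 13.9% of all genes. These 7 had to remain, since control replicate 2 was highest for all 10. Pcna, the most abundant of them, measured 33.4, 53.2 and 29.3 FPKM in control libraries against 24.6, 20.9 and 23.8 FPKM in SMA libraries. Their median was -0.89 with all libraries and -0.42 without control replicate 2, against 0.27 for Stmn1 in the latter.

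Among 7126 genes averaging 10 FPKM or more, those whose log2(FPKM + 1) followed the mean of the 10 members most closely over 6 libraries were Ctnna2, Sept3, Mycbp2, Heatr5b and Faxc, with Pearson's r of 0.9987 or more and 216 genes at 0.99 or more. Like the members, Ctnna2 was lowest in control replicate 2, at 39.8 FPKM against 60.5 FPKM or more elsewhere. Over the 5 libraries without it, the closest genes were Rad23b, Mab21l2, Svop, Mia3 and Csdc2, with r of 0.997 for Rad23b and 10 genes at 0.99 or more. The 2 sets of 5 genes had none in common. The median r over all these genes was 0.748 over 6 libraries and 0.085 over 5.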

How the data were processed

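Bulk-seq libraries of whole spinal cord, 3 labelled SMA and 3 labelled control, were grouped by their GEO labels. Libraries kept strand and were depleted of ribosomal RNA. Reads were aligned by the authors with HISAT2, and FPKM values from Cufflinks were deposited for each library, with mm10 named in the processing notes. Versions and the annotation release were not given in the sources used here. Depth in reads is unknown because FPKM holds no counts, and the relative depth estimated from FPKM under 0.15 ranged from 1 to 1.156 times that of SMA replicate 1, an estimate resting on few genes (33 of 1165 at the commonest ratio for control replicate 1). Intervals for counting error could not be given.

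A gene absent from a file was set to 0 FPKM. Values were transformed to log2(FPKM + 1), a scale on which changes of weakly expressed genes come out too small, and a gene was tested where its mean reached 0.5 FPKM. SMA was compared with control by lmFit and eBayes with a trend in limma 3.58.1 (R 4.3.3), without covariates, two-sided, with Benjamini-Hochberg adjustment over all genes tested. The study's methods name a count test, which could not be run on FPKM. Exact permutation tests used SciPy 1.17.1 in Python 3.11.15, with pandas 2.3.3, numpy 2.4.6 and matplotlib 3.10.9. The fit was tested on simulated data. Gene positions came from GENCODE M21.

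The members and gene lists were chosen with earlier results of these data known. Genes named were the members, Smn1, in each related list the 2 with the highest mean FPKM and up to 3 with the smallest unadjusted p under 0.05, in each marker list the most abundant gene, and the 5 most correlated genes. Other genes were named where a count was small, after their values had been seen. Alternatives were another pseudocount (0.1), no filter or a minimum of 1 FPKM, rescaling to the same total, quantile, median ratio and pan-neuronal scaling, robust eBayes, a replicate block, each library left out, and pan-neuronal scaling without control replicate 2. The scalings to the same total and by median ratio without control replicate 2 were chosen after seeing the data. The single-cell libraries were not analysed here. The values of a marker list are not reported here.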

Additional observations from a re-analysis of the deposited data

How the results depend on the processing

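No member had an adjusted p under 0.05 in limma with Benjamini-Hochberg adjustment under any alternative. Stmn1 was the member higher at an unadjusted p under 0.05, and the count was 0 without a filter on low FPKM, with the same total and with pan-neuronal scaling with or without control replicate 2, 2 with median ratio scaling without control replicate 2, and 0 to 2 with each library left out. With the same total and control replicate 2 left out, 1 member, Marcks, was lower. The median over the members was 0.33, and it was 0.035 with pan-neuronal scaling, 0.012 with that scaling without control replicate 2, 0.027 with the same total without control replicate 2, 0.076 with median ratio scaling without control replicate 2, and 0.079 to 0.47 with each library left out. The cause was not tested.

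Over all genes the adjusted count was 0, and 1 with control replicate 2 left out together with pan-neuronal, same total or median ratio scaling, and 0 to 2 with each library left out. At an unadjusted p, 581 genes were higher and 409 lower. The count higher was 882 without a filter, 338 with the same total, 47 with pan-neuronal scaling, 372 with that scaling without control replicate 2, and 214 to 1040 with each library left out. The count lower was 822 with pan-neuronal scaling, 1275 with that scaling without control replicate 2, 386 with the same total, 1462 with the same total without control replicate 2, 897 with median ratio scaling without control replicate 2, and 125 to 862 with each library left out. The split of higher and lower calls therefore moved with the scaling.

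Signs changed for Gap43, from 0.28 to -0.0185 with pan-neuronal scaling, -0.105 with that scaling without control replicate 2, -0.038 without control replicate 2, -0.0901 with the same total without it and -0.0412 with median ratio scaling without it, and its range with each library left out was -0.038 to 0.46. Basp1 went from 0.20 to -0.0986 with pan-neuronal scaling, -0.105 with that scaling without control replicate 2, -0.0384 without control replicate 2, -0.0905 with the same total without it and -0.0415 with median ratio scaling without it, and its range with each library left out was -0.0384 to 0.33. Map1b went from 0.26 to -0.0325 with pan-neuronal scaling, -0.038 with that scaling without control replicate 2 and -0.0232 with the same total without it. Stmn2 went from 0.34 to -0.0212 with pan-neuronal scaling and -0.0064 with the same total, both without control replicate 2. Marcks went from -0.02 to 0.0026 with the same total and 0.00071 with quantile normalization, but was -0.31 with pan-neuronal scaling, -0.19 with that scaling without control replicate 2 and -0.18 with the same total without it, and its range with each library left out was -0.13 to 0.075. These 2 scalings without control replicate 2, same total and median ratio, were chosen after seeing the data.

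Deviations of same-numbered libraries correlated at -0.037, 0.016 and 0.077, and those of other numbers at -0.055 to 0.043. Pairing by replicate number was thus not seen, but values this near 0 could not exclude it. With the number as a block, 356 genes were higher at an unadjusted p, against 581, and not every library correlated best with its own number.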

Other observations

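The other marker lists had no gene with an adjusted p under 0.05 in limma with Benjamini-Hochberg adjustment. Of 5 endothelial genes, 3 were lower in all SMA libraries with or without control replicate 2 (Cldn5, Kdr and Pecam1), against 6.67% of all genes with it and 13.9% without. Leaving out a library could not undo this separation. Cldn5, of tight junctions, measured 25.8, 20.4 and 24.96 FPKM in control libraries against 16.4, 15.7 and 14.4 FPKM in SMA libraries. Fibroblast genes, led by Col1a2, summed to 162.1, 169.7 and 145.2 FPKM in control libraries against 177.3, 75.33 and 34.78 FPKM in SMA libraries. Motor neuron genes, led by Prph, summed to 58.22, 39.3 and 88.33 FPKM in control libraries against 58.12, 65 and 60.45 FPKM in SMA libraries. Sensory ganglion genes, led by Calca, summed to 7.528 to 22.6 FPKM over all libraries, with Mrgprd at 0 in at least 1. Median log2 fold changes with all libraries and without control replicate 2 were -0.29 and -0.42 for oligodendrocyte genes (led by Mbp), 0.16 and 0.03 for astrocyte genes (Aldoc), and 0.48 and 0.58 for the 4 and 3 skeletal muscle genes tested (Actc1). Signs turned without that library for oligodendrocyte precursor genes (Cspg5), from 0.08 to -0.07, and for microglial genes (P2ry12), from -0.10 to 0.10. They also turned for the 3 sensory ganglion genes tested, from 0.15 to -0.09, and for the 14 and 11 hepatocyte genes tested, from -2.45 to 0.15. The 2 genes named did not follow their lists, since Cspg5 went from 0.26 to 0.04 and P2ry12 from 0.005 to -0.11. Without control replicate 2, 4 microglial genes were positive and 3 negative, and 2 precursor genes were positive and 4 negative. The part of any of these lists in the values of the stathmin and axon genes was not tested.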
